A study of Mus musculus with 8 samples.

Results

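The circadian clock genes are a set of 10 named genes, Arntl, Clock, Npas2, Per1, Per2, Per3, Cry1, Nr1d1, Nr1d2 and Dbp, given as a list of names with earlier results of these data known. All 10 were found among the 50599 records counted in each library, and all 10 passed the low-count filter of the test. They were measured by RNA sequencing of whole hearts from 12-week-old male mice on a C57BL/6N background, in 4 wildtype and 4 Lrpprc knockout libraries, each from 1 animal. The knockout mice were Lrpprc loxP/loxP with Cre, which removes the gene in heart and skeletal muscle only, and the study names its controls as Lrpprc loxP/loxP, while the labels call them wildtype. The promoter that drives Cre is not given in the sources used here, and cells of the heart outside its reach keep the gene. All mice lived under 12 h of light and 12 h of dark, with lights on at 7 am and off at 7 pm. The hour at which each heart was taken is not given in the sources used here, so a difference in genotype and a difference in sampling time between the groups cannot be told apart. In whole tissue, fewer cells of a type and less RNA per cell cannot be told apart either.

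The clock of mammalian cells is a loop of transcription factors. ARNTL, also called BMAL1, pairs with CLOCK or its relative NPAS2 and activates the Per and Cry genes, the nuclear receptor genes Nr1d1 and Nr1d2, and Dbp, through E-box sequences. PER and CRY proteins repress that pair, the NR1D receptors (REV-ERB) repress Arntl and Npas2 through ROR elements, and DBP activates further genes through D-boxes. In mouse peripheral tissues the RNAs peak in turn: Arntl, Npas2 and Clock near the change from dark to light, Nr1d1 and then Dbp during the light phase, the Per genes around the change from light to dark, and Cry1 later in the dark. The heart has its own copy of this clock, which is known for rhythms in metabolism and in ion channels.

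The promoter sequences are shown because the members are linked through short motifs in them. RefSeq (GRCm38.p6) gave a window for every member except Per2. The 250 bases before each start were searched on both strands for the E-box CACGTG, the E-prime box CACGTT, the D-box TTANGTAA and a ROR element core TAGGTCA. Of all 32851 windows, 6.02% held the E-box, 3.85% the E-prime box, 2.06% the D-box and 2.23% the ROR element core. Matches were found in Per1, Per3, Cry1 and Nr1d1, and these letters were not in the windows of Arntl, Clock, Npas2, Nr1d2 and Dbp. Ciart, a repressor of the ARNTL and CLOCK pair that is not among the 10 genes, is shown with them because its RNA had the largest change of any clock component tested. The 5 windows with matches in the genes named above are printed, and each stretch below stops where an annotated exon begins, runs 5′ to 3′ on the strand of the gene, and has the matched motifs in capitals. The stretches are chr4:151044666-151044915 (minus strand) for Per3 with D-boxes at 205 and 158 bases before the start, chr11:98775378-98775627 (minus strand) for Nr1d1 with an E-prime box at 28 bases, chr10:85185065-85185304 (minus strand) for Cry1 with an E-prime box at 79 and an E-box at 60 bases, chr11:69098699-69098947 (plus strand) for Per1 with an E-box at 166 bases, and chr3:95882252-95882478 (minus strand) for Ciart with E-boxes at 116, 58 and 44 bases.
Per3: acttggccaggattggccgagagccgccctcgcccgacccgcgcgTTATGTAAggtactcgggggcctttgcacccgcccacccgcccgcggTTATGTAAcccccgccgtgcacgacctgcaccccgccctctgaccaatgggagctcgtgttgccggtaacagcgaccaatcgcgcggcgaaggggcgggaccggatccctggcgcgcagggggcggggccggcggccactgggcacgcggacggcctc
Nr1d1: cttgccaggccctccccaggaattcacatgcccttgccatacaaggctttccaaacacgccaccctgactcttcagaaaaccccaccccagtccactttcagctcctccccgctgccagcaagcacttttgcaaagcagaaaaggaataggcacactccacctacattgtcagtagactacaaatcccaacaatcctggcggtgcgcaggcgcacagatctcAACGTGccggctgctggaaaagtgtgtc
Cry1: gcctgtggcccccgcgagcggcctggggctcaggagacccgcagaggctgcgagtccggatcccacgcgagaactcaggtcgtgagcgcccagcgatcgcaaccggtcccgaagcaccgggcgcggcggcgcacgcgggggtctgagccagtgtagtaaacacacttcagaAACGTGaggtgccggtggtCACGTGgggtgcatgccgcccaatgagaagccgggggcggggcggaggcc
Per1: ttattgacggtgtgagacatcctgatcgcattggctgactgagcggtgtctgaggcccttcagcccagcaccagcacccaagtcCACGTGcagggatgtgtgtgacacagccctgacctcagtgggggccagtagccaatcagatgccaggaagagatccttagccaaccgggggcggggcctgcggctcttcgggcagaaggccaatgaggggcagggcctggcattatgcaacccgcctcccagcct
Ciart: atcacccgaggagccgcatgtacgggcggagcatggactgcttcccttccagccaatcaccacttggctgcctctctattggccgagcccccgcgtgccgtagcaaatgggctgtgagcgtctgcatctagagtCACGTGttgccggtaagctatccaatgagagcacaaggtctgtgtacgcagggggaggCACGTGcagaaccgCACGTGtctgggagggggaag
The E-prime boxes of Nr1d1 and Cry1 lie on the opposite strand and so read AACGTG here, and none of the matches overlaps another. Among other clock components searched, Tef and Bhlhe41 also held an E-box, Cry2 an E-prime box and Nfil3 a ROR element core. None of these genes was called between the groups, and Hlf held no match. Tspan4, a clock output that was higher in the knockout, held an E-box. These windows are not printed. A match is a description of the letters and not a measured binding site.

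Total expected counts lay between 35218541 and 47743376 per library. The targeted gene checked the labels, since the normalised count of Lrpprc was 3424 to 3946 in the wildtype and 504.3 to 605.4 in the knockout. Mitochondrial rRNA took 44% to 46.9% of counts in the wildtype and 65.6% to 67.8% in the knockout. All 5 cardiomyocyte markers were abundant in every library and 4 of them were lower in the knockout, with a summed normalised count of 821700 to 926000 in the wildtype and 389900 to 515400 in the knockout. The 4 atrial markers, 2 of them lower in the knockout, summed to 9980 to 12040 in the wildtype, to 3233 to 6012 in knockout replicates 1, 2 and 4 and to 1268 in knockout replicate 3. Of the 4 macrophage markers 3 were higher in the knockout, and their sum was 2260, 4001, 1659 and 3411 in knockout replicates 1 to 4 against 1539 to 1939 in the wildtype. The 3 erythroid markers summed to 12690 and 15140 in knockout replicates 2 and 3, to 4288 and 5950 in replicates 1 and 4, and to 5789 to 7511 in the wildtype. The 4 endothelial markers, none called, summed to 14330, 9649, 8231 and 11550 in knockout replicates 1 to 4 against 11640 to 12480 in the wildtype. Among them Kdr was lowest in knockout replicates 2 and 3, at 2141 and 1805 against 4468 to 4574 in the wildtype, while Pecam1 was 2967 and 2779 there against 2283 to 2782. The erythroid sum was highest, and the endothelial sum lowest, in knockout hearts 2 and 3, in which Per2 was highest. The sums of smooth muscle markers (2243 and 1552) and of adipose markers (16.46 and 2.86) were also lowest in these hearts. The sums of the other marker sets did not set these hearts apart. Both smooth muscle markers were lower in the knockout, with sums of 1552 to 3449 against 4695 to 6051. The 4 fibroblast markers, 1 of them higher, summed to 15960 and 14690 in knockout replicates 2 and 4 and to at most 10420 elsewhere. The 3 skeletal muscle markers summed to 0.954 to 7.05 in the wildtype, 6.18 in knockout replicate 1 and 21.04 to 32.56 in the others, with Tnnt3 higher (DESeq2, adjusted p = 0.00188) and Myh4 at 0 in 7 of the 8 libraries. The 3 adipose markers, none called, summed to 37.53 to 111.2 in the wildtype and 2.86 to 101 in the knockout. The part of these markers in the results on the clock genes was not tested.

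The first question was whether the clock genes differed between Lrpprc knockout and wildtype hearts. Per2 was higher in the knockout, and Nr1d1 and Npas2 were lower. The other 7 genes were not called (DESeq2, at an adjusted p under 0.05 over all genes). These 3 calls among 10 stand beside 33.7% of all 19959 genes tested, with 18.2% higher and 15.5% lower, so the share of clock genes called was close to the background. The median log2 fold change of the 10 genes was 0.0935, and that of all tested genes was 0.00504. At an unadjusted p under 0.05 there were 4 clock genes, with Per1 as the addition, beside 41.5% of all genes tested. By edgeR, Per2 and Nr1d1 were called and Npas2 was not (edgeR, adjusted p = 0.0638), beside 39.7% of the genes it tested.

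**Figure D1:**
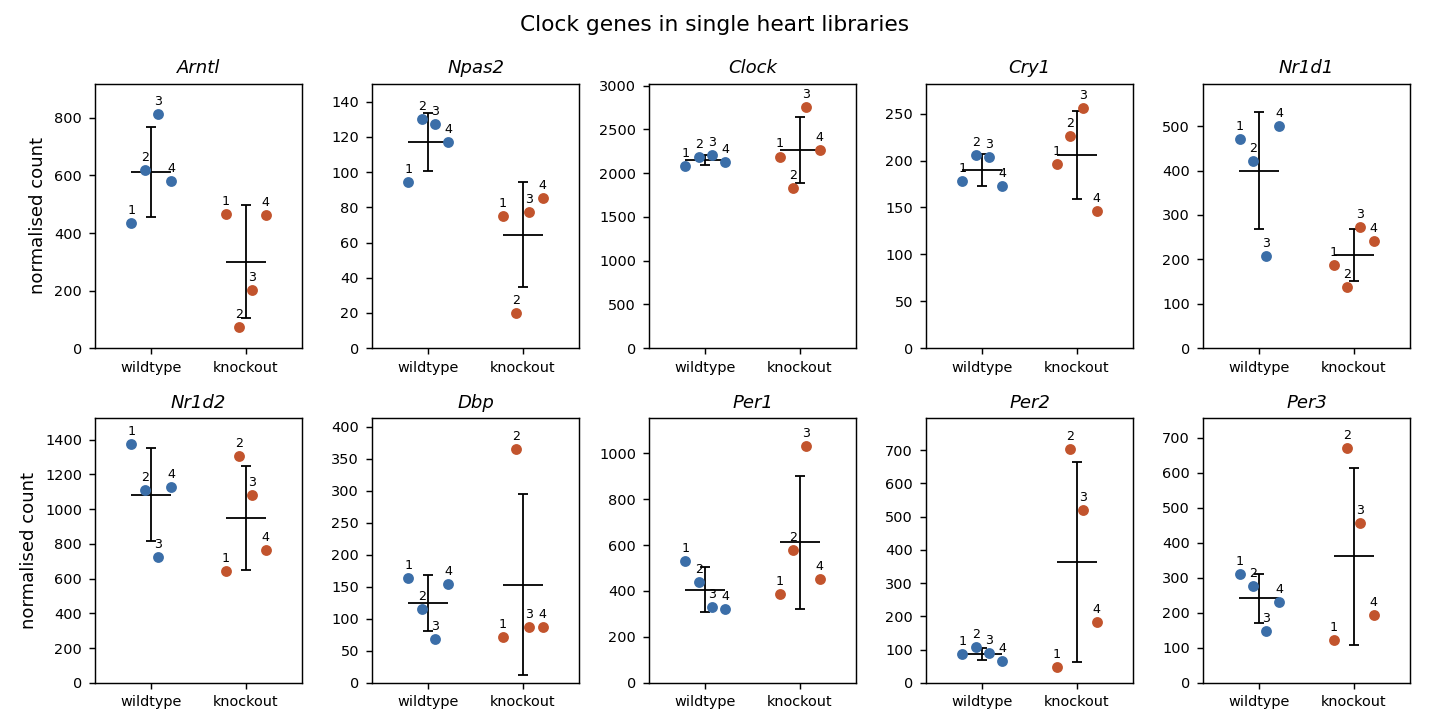
Normalised count (y axis, from 0) of each of the 10 clock genes in the 4 wildtype (blue) and 4 Lrpprc knockout (orange) libraries; numbers are replicates, and black lines are the mean and SD of 4 libraries. Knockout replicate 2 stands at 73.29 for Arntl and 704 for Per2, while knockout replicate 1 stands at 467.7 and 47.78.

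Among the activators, Arntl encodes the partner that every pair of the activating arm needs. Its normalised counts were 434.8, 619, 814 and 580.2 for the wildtype hearts, in the order of their replicate numbers, and 467.7, 73.29, 200.8 and 461 for the knockout hearts. Knockout replicates 1 and 4 lay inside the wildtype range and replicates 2 and 3 below it, so the groups overlapped. The log2 fold change of Arntl was -1.03, with a 95% interval from -2.16 to 0.11, and missed the threshold (DESeq2, adjusted p = 0.168). Arntl lies on chromosome 7 from 113207465 to 113314126 (GRCm38, plus strand).

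Npas2 encodes a partner of ARNTL that can take the place of CLOCK. Its counts were 94.29, 130, 127.6 and 116.9 in the wildtype and 75.3, 19.94, 77.56 and 85.35 in the knockout. Each knockout heart lay below each wildtype heart, and Npas2 was the only 1 of the 10 clock genes whose groups did not overlap, where 33.0% of all genes tested did not overlap, with 16.7% higher and 16.4% lower. Npas2 fell by 0.86 on the log2 scale (standard error 0.352, DESeq2, adjusted p = 0.0445). The call was lost when any single wildtype library was left out, with adjusted p values by DESeq2 from 0.0551 to 0.125, and it was kept without knockout replicate 2 (log2 fold change -0.56). RSEM gave Npas2 an effective length of 3266 bases with an SD of 307 for the wildtype and 2872 with an SD of 334 for the knockout (n = 4 each), and without the length offset the log2 fold change was -1.06.

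Clock, which encodes the common partner of ARNTL, had counts of 2075, 2183, 2210 and 2122 in the wildtype and 2189, 1834, 2752 and 2268 in the knockout. Knockout replicate 2 lay below the wildtype range, replicates 3 and 4 above it and replicate 1 inside it. Its log2 fold change of 0.07 had a 95% interval from -0.18 to 0.33 (DESeq2, adjusted p = 0.713). Its sign turned with total-count scaling (-0.23) and without knockout replicate 3 (-0.03).

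The Per genes encode the PERIOD proteins, which form the repressing complex with CRY. Per2 had counts of 85.55, 108.4, 88.75 and 65.77 in the wildtype and 47.78, 704, 520.8 and 183.1 in the knockout. Knockout replicates 2, 3 and 4 lay above every wildtype library and replicate 1 lay below every one. The highest knockout library stood 14.7-fold above the lowest, against 1.65-fold in the wildtype. Per2 rose by 2.06 on the log2 scale, with an interval (95%) from 0.61 to 3.52 (DESeq2, adjusted p = 0.0195). The call was lost without knockout replicate 2 (log2 fold change 1.53, DESeq2, adjusted p = 0.115), without knockout replicate 3 (1.83, DESeq2, adjusted p = 0.0748) and without wildtype replicate 1, 3 or 4, where the adjusted p by DESeq2 was 0.0605, 0.0545 and 0.071. Leaving out knockout replicate 1, the heart below the wildtype range, gave 2.43 (DESeq2, adjusted p = 5.6e-10). Its effective length was 4569 bases in knockout replicate 2 and 5665 to 5670 in the other 7 libraries, and the reads behind the normalised count there numbered 505.

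Per3 had counts of 310.9, 276.3, 147.4 and 230.6 in the wildtype and 121.6, 671.2, 457.4 and 194.8 in the knockout. Knockout replicates 2 and 3 were above the wildtype range, replicate 1 was below it and replicate 4 was inside it, much as for Per2. For Per3 the log2 fold change was 0.58, its 95% interval -0.53 to 1.70 (DESeq2, adjusted p = 0.469). Leaving out knockout replicate 1 gave 0.87, past the threshold (DESeq2, adjusted p = 0.0431), and leaving out replicate 2 gave 0.10. The effective length of Per3 was 3538 bases in knockout replicate 1 and 4505 to 5333 in the other libraries, and together with the size factor of that library this scaled the 81 reads counted there to the 121.6 given above. The span of Per3 on chromosome 4 (151003652 to 151044665, minus strand) lies wholly inside the longer gene Camta1 on the same strand, and reads of shared sequence could be divided between them. Camta1 fell by 0.59 on the log2 scale (DESeq2, adjusted p = 0.000271).

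Per1, which also answers acutely to hormones and stress, had counts of 530.9, 439, 332 and 323 in the wildtype and 387.5, 580.2, 1030 and 453.5 in the knockout. Knockout replicates 2 and 3 were above the wildtype range, and replicates 1 and 4 were inside it. For Per1 the log2 fold change was 0.60, its 95% interval 0.03 to 1.17 (DESeq2, adjusted p = 0.102). Leaving out knockout replicate 3 gave 0.23, while leaving out knockout replicate 1 gave 0.77, past the threshold (DESeq2, adjusted p = 0.0203).

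Cry1 encodes the cryptochrome that peaks last. Its counts were 178, 206, 203.5 and 172.9 in the wildtype and 196.2, 226.2, 255.7 and 146.1 in the knockout, with knockout replicates 2 and 3 above the wildtype range and replicate 4 below it. For Cry1 the log2 fold change of 0.11 had a 95% interval from -0.26 to 0.49 (DESeq2, adjusted p = 0.704), and its sign turned with total-count scaling (-0.20) and without knockout replicate 3 (-0.01).

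Nr1d1 and Nr1d2 encode the REV-ERB receptors. Nr1d1 had counts of 470.6, 422, 208.1 and 499.9 in the wildtype and 186.6, 138.7, 272.2 and 242 in the knockout. Wildtype replicates 1, 2 and 4 lay above every knockout library, and wildtype replicate 3 lay among them. Nr1d1 fell by 0.93 on the log2 scale (standard error 0.286, DESeq2, adjusted p = 0.00506), and the call was kept in each of the 8 fits that left out 1 library, with values from -1.15 to -0.77. The 3′ end of Nr1d1 on chromosome 11 (98767932 to 98775333, minus strand) overlaps Thra, on the plus strand, over 1075 bases. The reads were assigned by strand, and the log2 fold change of Thra was -0.22 (DESeq2, adjusted p = 0.429).

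Nr1d2 had counts of 1373, 1109, 725.6 and 1125 in the wildtype and 646.4, 1307, 1079 and 765.4 in the knockout. Knockout replicates 2, 3 and 4 lay inside the wildtype range and replicate 1 below it. Its log2 fold change of -0.19 had a 95% interval from -0.67 to 0.29 (DESeq2, adjusted p = 0.598), and its sign turned when total counts without mitochondrial rRNA were used (0.23). In knockout replicate 2 Nr1d1 was at its lowest and Nr1d2 at its highest of the 4 knockout hearts.

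Dbp encodes a D-box activator and is a direct target of ARNTL and CLOCK. Its counts were 163.3, 114.8, 68.28 and 153.7 in the wildtype and 72.05, 364.9, 87.71 and 87.48 in the knockout. Knockout replicate 2 stood above every wildtype library, and the other 3 knockout libraries lay in the lower part of the wildtype range. For Dbp the log2 fold change of 0.29 had a 95% interval from -0.94 to 1.52 (DESeq2, adjusted p = 0.77). Leaving out knockout replicate 2 gave -0.60 (DESeq2, adjusted p = 0.134). The 3′ end of Dbp overlaps Sphk2 on the other strand over 737 bases, and the log2 fold change of Sphk2 was 0.13 (DESeq2, adjusted p = 0.538).

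**Figure D2:**
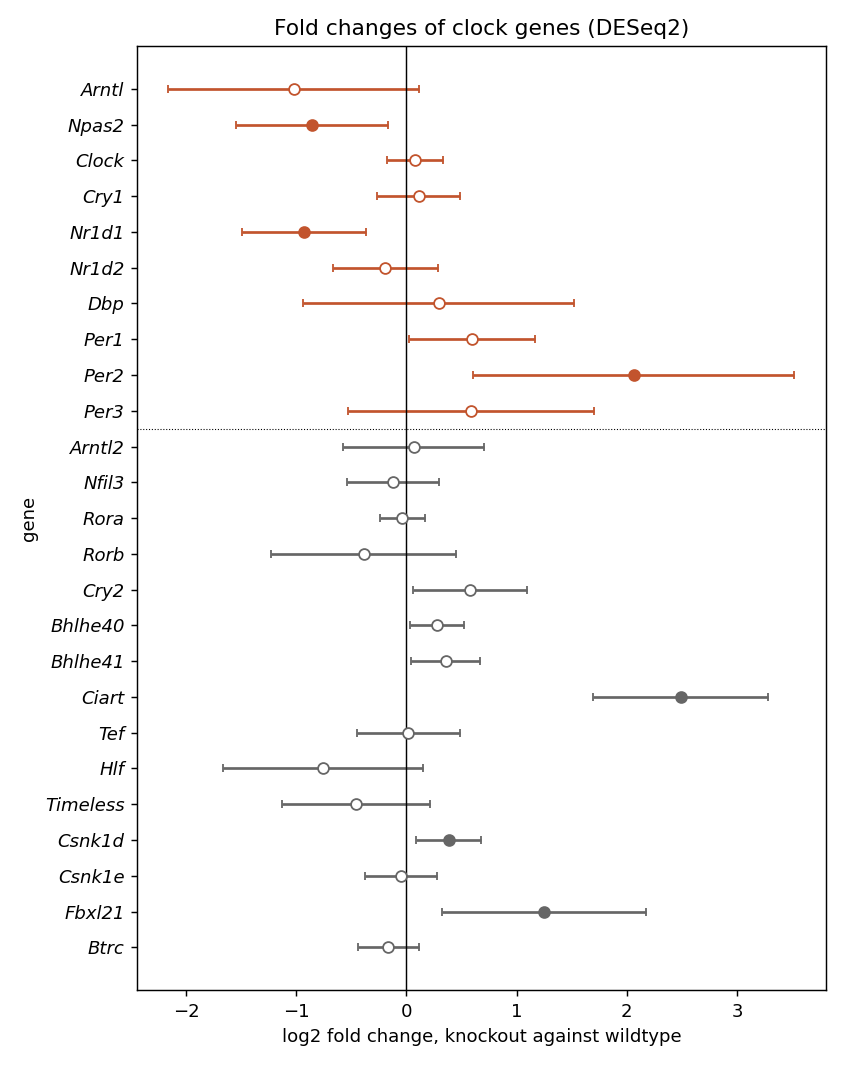
Log2 fold change (x axis) of the 10 clock genes (orange, above the dotted line) and 15 other clock components (grey); bars are 95% intervals, filled points have a DESeq2 adjusted p under 0.05. Per2 at 2.06 and Ciart at 2.49 lie farthest to the right, and Arntl at -1.03 has an interval that reaches past 0.

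The knockout hearts differed among themselves more than the wildtype hearts did. The SD of the log2 values was larger in the knockout for 9 of the 10 clock genes, all except Nr1d1, where 72.7% of all tested genes had a larger SD in the knockout. The median SD over the clock genes was 0.356 in the wildtype and 0.795 in the knockout, and over all tested genes it was 0.213 and 0.345. Without knockout replicate 2 the median SD of the clock genes was 0.389, and without replicate 3 it was 0.831. Arntl had an SD of 0.371 among wildtype and 1.26 among knockout hearts, with 0.696 when knockout replicate 2 was left out. Per2 had 0.293 and 1.74, with 1.71 when knockout replicate 2 was left out. Dbp had 0.569 among wildtype hearts and 0.161 among the knockout hearts other than replicate 2. Clock had the smallest SD of the 10 genes in both groups, at 0.0408 and 0.24.

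The members were then read library by library. Knockout replicate 2 lay outside the wildtype range for 9 of the 10 genes, 5 above and 4 below. It was lowest of the knockout hearts in Arntl, Clock, Npas2 and Nr1d1 and highest in Per2, Per3, Nr1d2 and Dbp. Knockout replicate 3 lay outside for 7 genes, 5 above and 2 below, and was highest of the knockout hearts in Per1, Cry1, Clock and Nr1d1. Knockout replicate 1 lay outside for 5 genes and below in each of them, and was lowest of the knockout hearts in Per1, Per2, Per3, Nr1d2 and Dbp. Knockout replicate 4 lay outside for 4 genes, 2 above and 2 below. The root-mean-square distance from the wildtype mean over the 10 genes was 1.79 log2 units for knockout replicate 2 and 1.14 for replicate 3, against 0.641 and 0.508 for replicates 1 and 4 and 0.163 to 0.488 for the wildtype libraries, which enter that mean themselves.

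**Figure D3:**
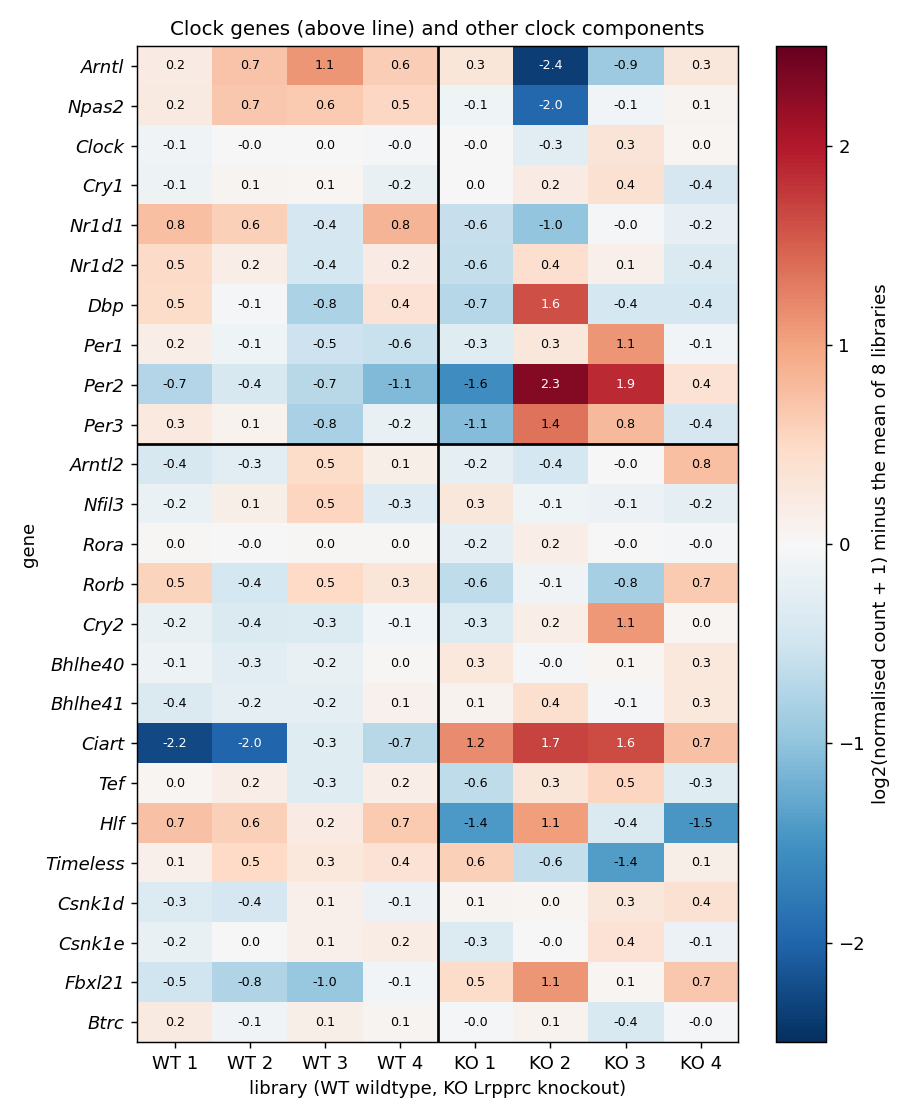
Log2(normalised count + 1) of each gene (rows) in each library (columns) minus its mean over the 8 libraries, in log2 units, from blue (low) to red (high). The 10 clock genes are above the horizontal line and the 15 other components below it, and knockout replicate 2 has the lowest Arntl and Npas2 together with the highest Dbp, Per2 and Per3.

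Genes of opposite known phase were set against each other within a library, which removes the scaling between libraries. The log2 ratio of Arntl to Per2 was 2.33 to 3.18 in the wildtype. In the knockout it was 3.26 in replicate 1, -3.25 in replicate 2, -1.37 in replicate 3 and 1.33 in replicate 4. The ratio in knockout replicate 1 was therefore just above the wildtype range, and the other 3 were below it. The log2 ratio of Arntl to Dbp was 1.41 to 3.56 in the wildtype, and 2.68, -2.30, 1.19 and 2.38 in knockout replicates 1 to 4, so that replicates 1 and 4 lay within the wildtype range. The log2 ratio of Arntl to Nr1d1 was -0.114 to 1.96 in the wildtype and 1.32, -0.911, -0.437 and 0.927 in knockout replicates 1 to 4. Replicates 1 and 4 lay within the wildtype range here too. The log2 ratio of Arntl to Ciart was 3.99 to 5.37 in the wildtype and 1.79, -1.36, 0.138 and 2.22 in knockout replicates 1 to 4. Every knockout heart lay below the wildtype range in this ratio, but Ciart was taken in because of its large change.

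The mean log2 level of Arntl, Clock and Npas2 minus that of Nr1d1, Nr1d2, Dbp and the Per genes was 0.381, 0.907, 1.69 and 0.933 in the wildtype. It was 1.37, -1.86, -0.294 and 0.821 in the knockout. Knockout replicates 1 and 4 were inside the wildtype range, and replicates 2 and 3 were below it. The group means differed by -0.969, and by -0.346 without knockout replicate 2. On log2(TPM + 1) the difference was -0.543 and on log2 TPM without a pseudocount, tried after seeing the data, it was -0.977. The difference combines members that were chosen together and carries no test.

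The ratio of Per2 to Nr1d1 ran otherwise. These RNAs both belong to the arm that ARNTL activates, and their log2 ratio was -2.91 to -1.22 in the wildtype and -1.94, 2.34, 0.934 and -0.4 in knockout replicates 1 to 4. Knockout replicates 2, 3 and 4 lay above the wildtype range and replicate 1 inside it.

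**Figure D4:**
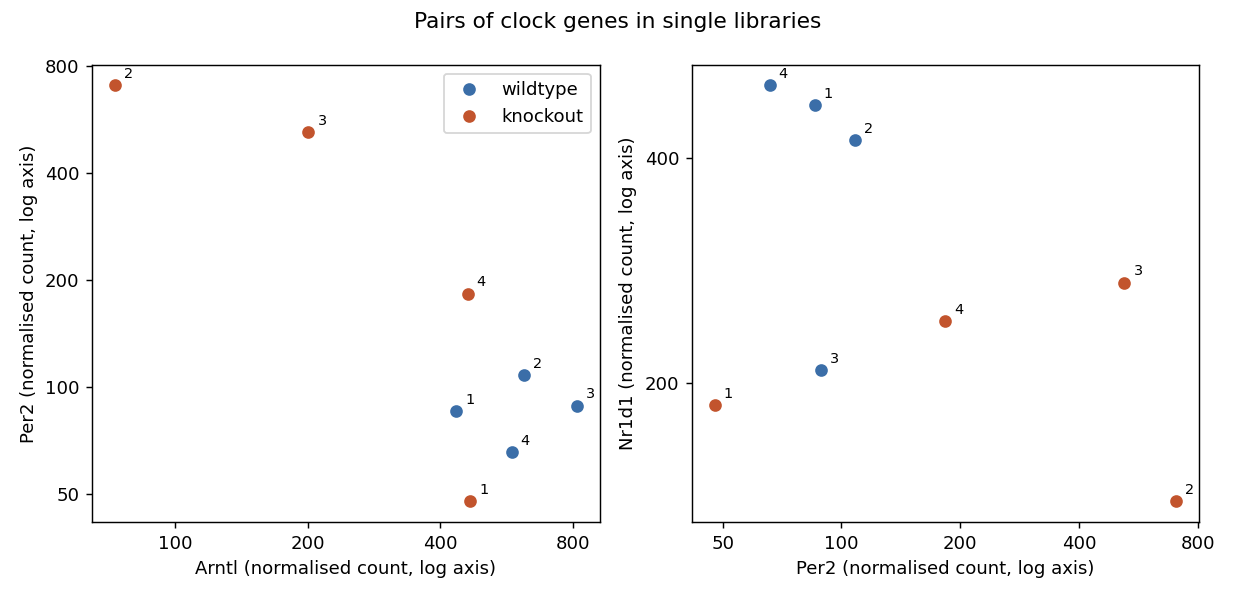
Normalised counts of Arntl against Per2 (left) and of Per2 against Nr1d1 (right), both on log axes, with 1 point per library and the replicate number beside it (wildtype blue, knockout orange). The 4 wildtype hearts lie between 65.77 and 108.4 for Per2, and the 4 knockout hearts are strung out from 47.78 to 704.

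Levels between genes were compared per length, as TPM, within a group only, because mitochondrial rRNA took different shares of the libraries. In the wildtype the order of mean TPM was Clock (9.35 ± 0.313, SD, n = 4), Nr1d2 (7.52 ± 1.9), Arntl (6.52 ± 1.66), Nr1d1 (4.53 ± 1.47), Per1 (3.75 ± 0.965), Dbp (2.74 ± 0.946), Cry1 (1.88 ± 0.187), Per3 (1.4 ± 0.421), Npas2 (1.06 ± 0.146) and Per2 (0.44 ± 0.0942). Neighbours in this order overlapped between libraries, except for Npas2 and Per2. In the knockout the levels of all neighbours overlapped. Arntl held rank 3 in the wildtype and rank 5 in the knockout, and Per1 held rank 5 and rank 3. Clock and Nr1d2 were the highest in both groups.

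**Figure D5:**
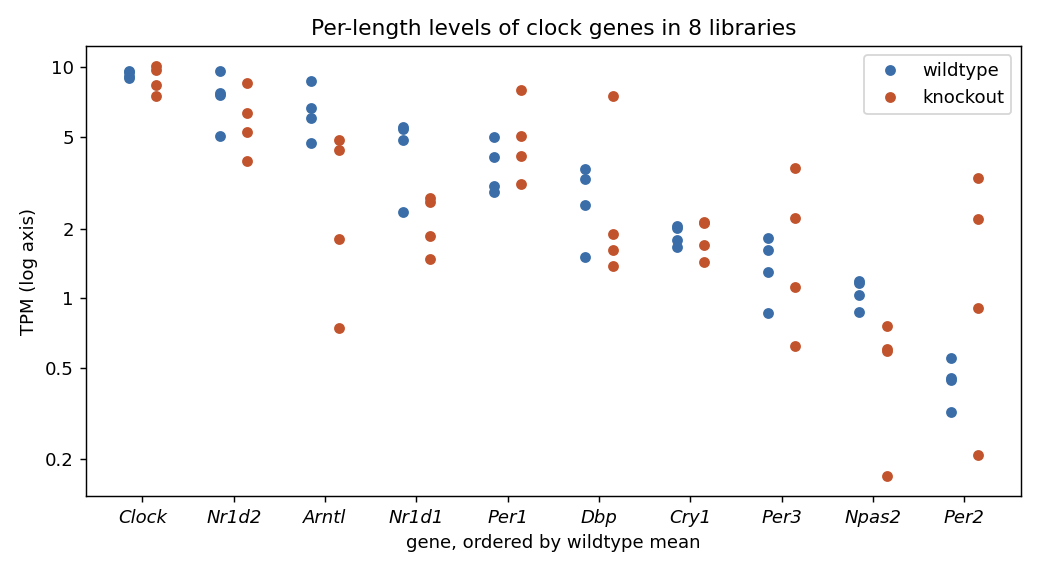
TPM (y axis, log scale) of the 10 clock genes in each wildtype (blue) and knockout (orange) library, ordered by the wildtype mean. Clock is highest at 8.99 to 9.65 in the wildtype, and Per2 runs from 0.32 to 0.55 there and from 0.21 to 3.32 in the knockout.

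The other clock components formed a list of 15 genes, of which 3 were higher, 0 lower and 12 did not pass (DESeq2, with 6 at an unadjusted p under 0.05). Among all genes tested 33.7% were called and 41.5% had that unadjusted p, and the median log2 fold change of the list was 0.0184 against 0.00504. Ciart had counts of 11.47, 13.96, 46.95 and 35.5 in the wildtype and 134.8, 189.7, 182.3 and 98.21 in the knockout. Every knockout heart was above every wildtype heart, knockout replicate 1 included. On the log2 scale Ciart rose by 2.49, standard error 0.406 (DESeq2, adjusted p = 1.27e-08). Csnk1d, a kinase of the PER proteins, rose by 0.38 (DESeq2, adjusted p = 0.034), a call that edgeR did not make (adjusted p = 0.0528). Fbxl21, which acts on CRY proteins, rose by 1.25 from counts of 5.99 to 11.89 to counts of 13.06 to 28 (DESeq2, adjusted p = 0.0273). Ciart was called in each of the 8 fits without 1 library. The call of Csnk1d was lost without wildtype replicate 1, 2 or 4 or knockout replicate 3 or 4, and that of Fbxl21 without wildtype replicate 1, 2 or 3 or knockout replicate 2 or 4, with adjusted p values by DESeq2 of 0.0541 to 0.134 and of 0.063 to 0.141.

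The remaining components did not pass the threshold. Hlf and Tef are relatives of Dbp that act on the same D-boxes. Hlf had 121.9 to 176.5 in the wildtype and 38.63, 219.8, 81.53 and 37.7 in the knockout, again with replicate 2 the only knockout heart above the wildtype, and its log2 fold change was -0.76 (DESeq2, adjusted p = 0.209). Leaving out that heart gave -1.57 for Hlf, past the threshold (DESeq2, adjusted p = 1.95e-06). Tef had 1181 to 1631 in the wildtype and 932.5 to 2101 in the knockout, and its log2 fold change was 0.02 (DESeq2, adjusted p = 0.964). Cry2 had 0.57 (DESeq2, adjusted p = 0.0804) with 1021 counts in knockout replicate 3 and at most 540.5 elsewhere. Leaving out that heart gave 0.21 for Cry2 (DESeq2, adjusted p = 0.304), and leaving out knockout replicate 1 gave 0.75, past the threshold (DESeq2, adjusted p = 0.00807). The repressors Bhlhe40 and Bhlhe41 had 0.28 and 0.36, and Nfil3, which opposes DBP at D-boxes, had -0.12. The receptors Rora and Rorb had -0.04 and -0.39, Arntl2 had 0.06, Timeless -0.46, Csnk1e -0.05 and Btrc -0.16. Leaving out 1 library brought Bhlhe40 past the threshold without knockout replicate 2 (0.34), Bhlhe41 without wildtype replicate 4 (0.46) or knockout replicate 3 (0.43), and Timeless without knockout replicate 1 (-0.81). Over these fits Timeless ran from -0.81 to -0.20, Rorb from -0.78 to -0.21 and Arntl2 from -0.24 to 0.24. Tef, Nfil3, Rora and Csnk1e also turned sign in some of them. The smallest adjusted p among these genes and the others of the list that missed the threshold was 0.0686 (DESeq2, Bhlhe41).

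Genes known as outputs of the clock in peripheral tissues formed a list of 11, of which 4 were higher and 2 lower (DESeq2), beside 18.2% and 15.5% of all genes tested. Their median log2 fold change was 0.597 against 0.00504 over all genes. Tspan4 rose by 2.00 (DESeq2, adjusted p = 1.1e-23), from 133.7 to 186.2 counts in the wildtype to 485.1 to 803 in the knockout. Por, the electron donor of microsomal P450 enzymes, rose by 1.57 (DESeq2, adjusted p = 1.33e-49), with 453.3 to 518.7 against 1333 to 1607. Lonrf3 rose by 1.45 (DESeq2, adjusted p = 8.55e-06). The groups did not overlap for these 3 genes. Of the 11 outputs 5 were higher without overlap and 1 lower, beside 16.7% and 16.4% of all genes tested. The knockout values of Por lay close together (SD 0.111 on the log2 scale) while those of Per2 did not. Kcnip2, a subunit of the transient outward potassium channel, fell by 1.26 (DESeq2, adjusted p = 5.65e-17), from 1702 to 1849 counts to 585.6 to 931.3. Klf15, a regulator of heart metabolism that acts on Kcnip2, had a log2 fold change of -0.40, which missed the threshold (DESeq2, adjusted p = 0.334). Leaving out knockout replicate 1 gave -0.14 for Klf15, and leaving out knockout replicate 3 gave -0.64. Klf15 had 208.6, 565.9, 715.8 and 467.9 counts in knockout replicates 1 to 4, where Kcnip2 had 931.3, 774, 585.6 and 710.6. A link between these genes was not tested.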

How the data were processed

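RNA was sequenced from 4 wildtype and 4 Lrpprc knockout mouse hearts as total RNA with random primers after removal of cytoplasmic rRNA. The authors made the deposited expected counts and TPM values with RSEM 1.2.31 and bowtie2 (paired-end, reverse-stranded) against GENCODE M13 transcripts with their own mitochondrial sequences, on mm10. The effective length is another deposited value, in bases. RSEM divides reads that fit several genes, which gives fractional values. The deposited table of the authors' own comparison (fold changes, p-values) and 8 columns of normalised counts whose names match no sample label were not used.

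Expected counts were rounded and tested with DESeq2 1.42.0 in R 4.3.3 over the 8 libraries together, with a single genotype term and effective lengths as an offset, the tximport route of the authors, and Benjamini-Hochberg adjustment at 0.05 over all genes. Fold changes were not shrunk. Normalised counts are counts divided by the size factor and the relative effective length. A pseudocount of 1 was used on the log2 scale. Symbols from GENCODE M21 matched 50339 of 50563 Ensembl identifiers. Replicates of a group differed by more than sampling noise (chi-square per degree of freedom 4.4 to 48.3).

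The members and lists were chosen with earlier results of these data known. The genes named are the 10 clock genes, 15 other clock components (further ones are not reported here), the 3 largest called changes of each other list, genes that overlap a member, and the 5 genes most like Arntl and Dbp among those averaging 100 or more normalised counts. Kcnip2, Klf15, Klf9, Dusp1, Tnnt3, Myh4, Kdr, Pecam1, Egr1, Egr3 and Nr4a1 were named after their values were seen. The alternatives tried were TMM scaling in edgeR 4.0.16, omission of the length offset, a filter of at least 10 counts in 4 libraries, other scalings, a replicate block and leaving out each library (for genes outside the 10, added after seeing the data). On simulated data for this comparison with 16103 genes tested, DESeq2 recovered 83.6% of genes changed 1.5-fold and 98.5% of those changed 2-fold, and 8.74% of its calls were unchanged genes. The simulated spread was that of the wildtype hearts in both groups. These shares therefore do not cover the clock genes, whose median SD was 0.795 in the knockout against 0.356 in the wildtype.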

Additional observations from a re-analysis of the deposited data

Results flagged for a closer look

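The 10 clock genes and the 15 other components give 50 groups of 4 hearts, and in 2 of them 1 heart stood far away from the rest. By chance about 1 in 20 groups, or 2.5, would hold such a heart. Both cases concern knockout replicate 2. Its Npas2 count was 19.94, against 75.3 to 85.35 in the other knockout hearts. Its Dbp count was 364.9, against 72.05 to 87.71.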

How the results depend on the processing

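Nr1d1 kept its direction under all alternatives and its call under all except total counts without mitochondrial rRNA (-0.513). Npas2 and Per2 kept their direction. The call of Npas2 was lost with edgeR (-0.877) and with total counts without mitochondrial rRNA (-0.44). With that scaling Clock (0.492), Per1 (0.999) and Cry1 (0.529) passed the threshold and Nr1d2 turned sign (0.232), while with total-count scaling Clock (-0.23) and Cry1 (-0.196) turned sign. Those scalings put the median log2 fold change of all genes with a mean of at least 10 at 0.444 and -0.277, against 0.0186, and relative to that median Per2 was 2.04, 2.04 and 2.03 and Nr1d1 -0.949, -0.951 and -0.957 with the size factors used, total counts and total counts without mitochondrial rRNA. Leaving out 1 library gave ranges of -1.32 to -0.697 for Arntl, -0.0346 to 0.165 for Clock, -1.02 to -0.564 for Npas2, 0.226 to 0.765 for Per1, 1.53 to 2.43 for Per2, 0.103 to 0.872 for Per3, -0.0107 to 0.251 for Cry1, -1.15 to -0.773 for Nr1d1, -0.381 to -0.0431 for Nr1d2 and -0.599 to 0.525 for Dbp. The number of clock genes called higher, 1, was 4 with total counts without mitochondrial rRNA, 0 with the replicate block and 0 to 3 on leaving out a library. The number lower, 2, was 1 with edgeR, 0 with total counts without mitochondrial rRNA and 1 to 2 on leaving out a library. Over all genes 3628 higher and 3100 lower became 1924 and 5912 with total-count scaling and 7950 and 1111 without mitochondrial rRNA. Of the other components 7 were called without the length offset, 8 with total counts without mitochondrial rRNA and 1 to 5 on leaving out a library, against 3. Over all genes 7407 were called without the length offset and 9061 with total counts without mitochondrial rRNA, against 6728. Of the immediate early genes 1 was called with edgeR and 1 to 5 on leaving out a library, against 2. The median SD among knockout hearts, varied after seeing the data, was 0.389 to 0.898. The cause of these changes was not tested.

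The replicate numbers did not pair the samples, since the deviations of same-numbered libraries correlated at -0.0735 to 0.0723 over 15754 genes and 1 of the 4 wildtype libraries correlated best with its own number. With the replicate block 5525 genes were called in place of 6728, Per2 had 1.56 (DESeq2, adjusted p = 0.0842) and Dbp had -0.00599. The lowest count of a clock gene was 16, for Npas2 in knockout replicate 2, so depth limits that value most.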

Other observations

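Glucocorticoid targets were listed because Per1 is one of the genes these hormones raise. Of the 10 genes 5 were higher and 0 lower in the knockout (DESeq2), beside 18.2% higher and 15.5% lower of all genes tested, and their median log2 fold change was 0.805 against 0.00504. Mt2, a metallothionein, rose by 3.23 from 18.37 to 147.8 counts in the wildtype to 217.8 to 847.8 in the knockout. Cdkn1a, the cell cycle inhibitor p21, rose by 2.23. Fkbp5, a co-chaperone of the glucocorticoid receptor, rose by 2.04 and had 244.3, 1183, 2117 and 765 counts in knockout replicates 1 to 4 against 179.4 to 409.3 in the wildtype. The lowest knockout heart for Fkbp5, replicate 1, lay inside the wildtype range, while Mt2 and Cdkn1a did not overlap between the groups. Klf9 (-0.46, DESeq2, adjusted p = 0.0622) and Dusp1 (-0.45, DESeq2, adjusted p = 0.0933) pointed the other way and were not called. Leaving out 1 library brought Klf9 past the threshold without knockout replicate 2 or 3, and Dusp1 without knockout replicate 1.

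Of 11 immediate early genes, which answer within minutes to stimuli, 1 was higher and 1 lower (DESeq2), beside 33.7% called over all genes tested, and their median log2 fold change was 0.312. Atf3, with 101.3 to 234 counts in the wildtype and 303.9 to 700.6 in the knockout, was higher, and Jun fell by 0.72 on the log2 scale. The call of Jun was lost without wildtype replicate 1 or 2 or knockout replicate 2, 3 or 4 (DESeq2, adjusted p 0.0554 to 0.123) and with edgeR (adjusted p = 0.0575). Knockout replicate 1 was highest of the 8 libraries in several of the others, with Egr1 at 661.2 against 40.89 to 223.3 in the other knockout hearts, Egr3 at 72.62 against 2.30 to 13.16, and Nr4a1 at 1477 against 250.7 to 377.1. The log2 fold changes of Egr1, Egr3 and Nr4a1 were -0.05, 1.33 and -0.14, none of them called (DESeq2, adjusted p = 0.977, adjusted p = 0.275 and adjusted p = 0.9). Leaving out knockout replicate 1 gave -1.24, -0.50 and -1.07, of which that of Nr4a1 passed the threshold (DESeq2, adjusted p = 0.000241).

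Likeness to Arntl and to Dbp was measured as the root-mean-square difference of centred log2 values over the 8 libraries, among 10446 other genes. It is a description and carries no test. Nearest to Arntl were Cntn2 (0.513 log2 units), Neb (0.529), BC037032 (0.558), Dennd4b (0.56) and 9330158H04Rik (0.568). Nearest to Dbp were Gm26870 (0.411), Adgra3 (0.434), Pole (0.455), Pde1a (0.457) and Capn15 (0.495). None of these 10 genes is on the lists of clock components or outputs. Adgra3 had 443 to 496.6 counts in the wildtype, 1046 in knockout replicate 2 and 344.7 to 421.4 in the other knockout hearts.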
